A study of Mus musculus with 28 samples.

Results

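Von Willebrand factor (VWF) was tested on murine bone marrow-derived macrophages (BMDMs) by bulk RNA sequencing, and the early comparison, 5 VWF-treated against 5 control cultures at 3.5 h, is described here over the functions of the genes that changed. The 10 cultures were chosen by the treatment and time in their labels, from 28 cultures in all, and every gene that passed an expression filter entered the comparison. The macrophages were grown with M-CSF from bone marrow of mice 8 to 12 weeks old (C57/B6JB in the study's methods) and kept overnight in medium with M-CSF. They were then washed and given fresh medium with 1 mM CaCl2, which controls and treated cultures shared. VWF 3.5 h cultures received plasma-derived VWF (pd-VWF, 10 µg/ml), and Control 3.5 h cultures were incubated with PBS. The cultures read for single points are 5 VWF-treated and 5 control cultures at 16 h and 4 cultures kept for 3.5 h with bacterial lipopolysaccharide (LPS) at 100 ng/ml. Labels call the replicates biological, but do not say whether they came from separate mice or preparations, so p values measure the spread between these cultures. In bulk samples, fewer cells of a type and less RNA per cell cannot be told apart.

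VWF is the large plasma glycoprotein that tethers platelets to injured vessel walls and carries coagulation factor VIII. Macrophages sense microbes and tissue damage through pattern recognition receptors, of which Toll-like receptors (TLRs) at the membrane and several sensors in the cytosol signal to NF-κB, MAP kinases and interferon regulatory factors. The early wave of transcription that follows in macrophages includes cytokines and chemokines together with inhibitors that end the response, and type I interferon made in the wave drives further genes through its receptor.

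Of 54532 genes in the counts, 8200 reached 10 TPM (transcript abundance scaled for gene length and depth) in at least 1 of the 10 cultures and were tested. Values below are CPM (counts scaled for depth) after TMM scaling, which corrects for library composition, as mean ± SD of 5 cultures unless each culture is given, and cultures are listed as replicates 1 to 5. A gene was called at a Benjamini-Hochberg adjusted p under 0.05 and an absolute log2 fold change over 1 (edgeR quasi-likelihood test). Pairs in parentheses are log2 fold changes with an SE. Each SE is the absolute log2 fold change divided by the square root of the F statistic of the test, and was not estimated separately. Genes said to be higher or lower were called unless stated otherwise. Of all genes tested, 14.7% were called, 9.18% higher and 5.52% lower with VWF, and these are the shares to hold each list against. Gene lists of 48 functions were set with earlier results of these data known, so that their counts describe the response and are no test of it. Most list genes named below were chosen among called genes whose groups did not overlap. A gap between the groups of such a gene is therefore no further support for it.

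Total counts of the 10 cultures lay between 41131209 and 76943833. Macrophage markers were high in every culture, with Csf1r between 1189 and 1971 CPM and Lyz2 between 5404 and 9664 CPM. Of 10 macrophage markers 1, Cd14, was called higher and 2 lower, Mertk among them. The summed markers of T cells, B cells, natural killer cells, mast cells, erythroid cells and platelets reached at most 9.09 CPM in any culture, those of endothelial cells 11.9 CPM and those of neutrophils 25.0 CPM. Markers of stromal cells summed to between 53.2 and 318 CPM in controls and between 55.0 and 407 CPM with VWF. Replicate 1 was the highest in both groups and replicate 3 the lowest, and their part in the results was not tested. Dendritic cell markers summed to at most 2.60 CPM in controls and to at least 14.2 CPM with VWF, mainly Xcr1 (mean 0.496 and 12.7 CPM), while Flt3 and Clec9a were at or near 0 in every culture. Within the groups, Control 3.5 h replicate 4 and VWF 3.5 h replicates 1 and 5 stood apart from the rest along the component that held 61.2% of the variation. The 100 genes that were most elevated in these 3 cultures had a median exon length of 6219.5 bases, and the 100 most reduced 1156.5 bases, against 4006.5 bases over all genes tested. Without the 3 cultures, 1181 genes were called, of which 1097 were among the 1206 called with them. Exon bases of some genes named below overlap another gene, by 39.4% in Klf7, 28.3% in Mmp19, 23.4% in Ccnd1, 23.1% in Arhgap27, 14.1% in Cd274 and 11.7% in Icam1, and 18.4% of the exon windows of Psme2 and 12.8% of those of Sod2 are found in other genes, so that their values are less certain.

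The genes that rose outnumbered those that fell and changed further. In total, 753 genes were higher and 453 lower with VWF, with a median absolute log2 fold change of 1.83 in the former and 1.41 in the latter. An absolute log2 fold change over 3 was found in 169 of the genes that rose and 11 of those that fell. The cultures of both groups did not overlap for 732 of the 753 and 437 of the 453 genes, beside 18.0% and 17.4% of all genes tested whose cultures did not overlap in these directions. Protein-coding genes made up 705 of the 753 and 420 of the 453. Genes that rose took 4.40, 4.45, 4.02, 4.87 and 4.25% of all counts in the 5 controls and 16.8, 17.3, 17.6, 18.6 and 18.8% in the 5 VWF-treated cultures. The corresponding shares of the genes that fell were 4.43, 4.67, 4.34, 5.19 and 4.74% in controls and 1.57, 1.36, 1.22, 1.14 and 1.43% with VWF. These shares describe genes that were picked for their difference, and each of the 10 cultures lay with its group. The filter let a gene pass through the group where it was high: 232 of the 753 reached 10 TPM only in VWF-treated cultures and 211 of the 453 only in controls. With scaling by total count alone, the median log2 fold change of all genes tested was -0.22 and the calls split into 612 higher and 643 lower, so that the excess of genes that rose depended on the scaling.

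Of 1155 distinct list genes tested, 274 rose and 105 fell, and 29 of the 48 lists held genes called in both directions. No gene was called in the lists of cytosolic ribosomal proteins (39 tested), of the respiratory chain and ATP synthase (40 tested) and of ribosome biogenesis (39 tested). The plot of called members by list shows the broad pattern. Cytosolic sensors of nucleic acids, NF-κB components and interferon-induced GTPases were called higher and in no case lower. Lineage transcription factors were called lower more often than higher. Of the 14 GTPase genes tested, 10 passed the filter only in VWF-treated cultures, so their full share is partly given by the filter.

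**Figure D1:**
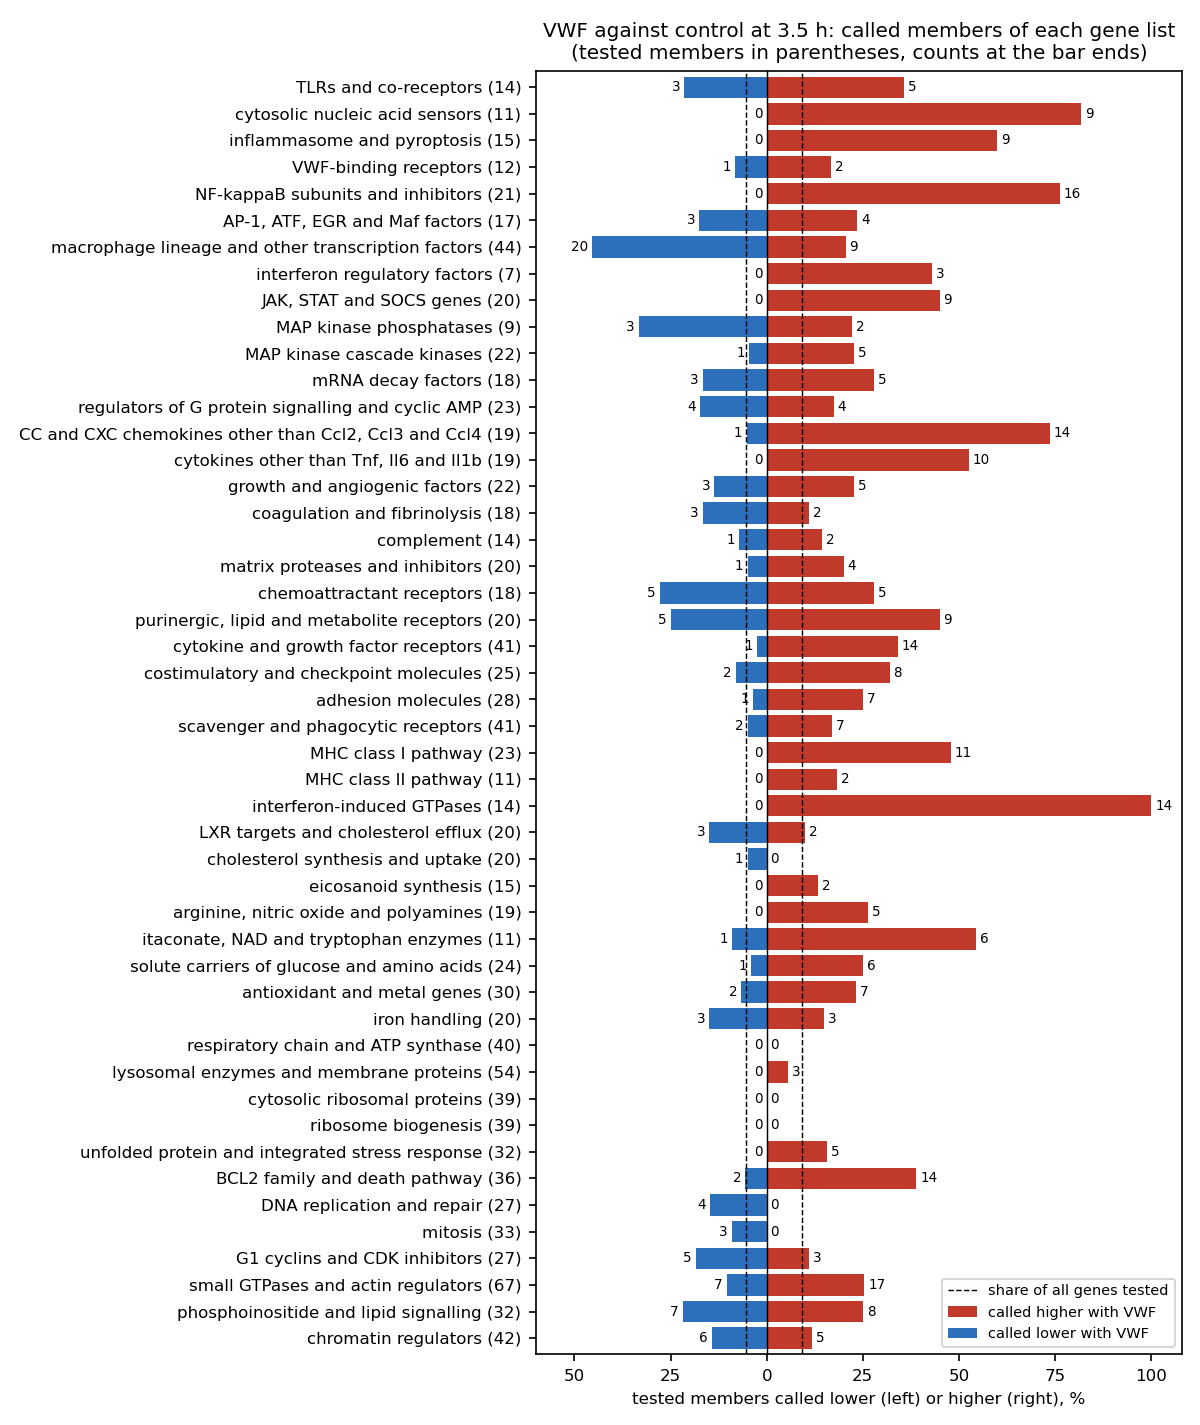
Percentage of the tested members of each of 48 gene lists called lower (blue, left) or higher (red, right) with VWF at 3.5 h, with the number called at each bar end and dashed lines at the shares over all genes tested (5.52% and 9.18%). Interferon-induced GTPases (14 of 14 tested, of 20 listed) lie at the right end, and 10 of the 14 passed the filter only in VWF-treated cultures. The macrophage lineage and other transcription factors reach furthest left with 20 of 44 lower.

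Promoters of 6359 of the 8200 genes tested were found in the RefSeq table (GRCm38.p6), as the 250 bases before to the 50 after the transcription start. They were searched on both strands for the letters GGGA and TTCC with any 2 bases between them, a κB site bound by NF-κB, for GAAA and GAAA with any 2 bases between them, the core of elements bound by interferon regulatory factors (ISRE, the interferon-stimulated response element), for TGANTCA, the AP-1 site, and for TGACGTNA, a CRE-like site. A gene was counted once, as holding a motif if any of its promoter entries did. More than 1 entry was found for 1290 genes, which gave these more sequence to match. The ISRE motif was held by 12.9% of 590 genes that rose, 2.89% of 346 genes that fell and 4.26% of all. The κB motif was held by 3.90% of genes that rose, by 0.289% of genes that fell, which is 1 gene, and by 2.03% of all. The AP-1 motif was held by 9.83%, 7.23% and 6.15% in the same order, and the CRE-like motif by 4.24%, 3.76% and 5.96%. A match is a run of letters and not a measured binding site. The 4 promoters printed here are of 3 genes that rose from low levels, the chemokine gene Cxcl10, the GTPase gene Gbp5 and the antiviral gene Rsad2, and of Gpr183, the gene that fell most. They were chosen after the motifs had been counted, to show promoters with and without matches. Each is the 250 bases before the start, 5′ to 3′ on the strand of the gene, with motif matches in capitals. The coordinates in GRCm38.p6 are chr5:92348890-92349139 (minus strand) for Cxcl10, chr3:142496684-142496933 (plus strand) for Gbp5, chr12:26456453-26456702 (minus strand) for Rsad2 and chr14:121965194-121965443 (minus strand) for Gpr183.
Cxcl10: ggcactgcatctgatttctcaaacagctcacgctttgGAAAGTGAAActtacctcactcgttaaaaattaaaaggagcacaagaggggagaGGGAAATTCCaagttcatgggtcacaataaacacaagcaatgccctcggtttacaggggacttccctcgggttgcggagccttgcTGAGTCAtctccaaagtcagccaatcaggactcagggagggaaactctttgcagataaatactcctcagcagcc
Gbp5: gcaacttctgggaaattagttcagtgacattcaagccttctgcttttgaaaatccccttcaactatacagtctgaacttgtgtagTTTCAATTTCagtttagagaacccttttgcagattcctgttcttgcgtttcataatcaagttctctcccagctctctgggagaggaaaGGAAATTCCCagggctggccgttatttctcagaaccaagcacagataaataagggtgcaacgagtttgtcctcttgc
Rsad2: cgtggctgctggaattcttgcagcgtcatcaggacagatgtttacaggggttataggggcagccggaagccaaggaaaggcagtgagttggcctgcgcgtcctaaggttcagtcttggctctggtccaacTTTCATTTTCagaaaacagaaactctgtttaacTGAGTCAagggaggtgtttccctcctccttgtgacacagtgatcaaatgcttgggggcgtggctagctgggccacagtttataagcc
Gpr183: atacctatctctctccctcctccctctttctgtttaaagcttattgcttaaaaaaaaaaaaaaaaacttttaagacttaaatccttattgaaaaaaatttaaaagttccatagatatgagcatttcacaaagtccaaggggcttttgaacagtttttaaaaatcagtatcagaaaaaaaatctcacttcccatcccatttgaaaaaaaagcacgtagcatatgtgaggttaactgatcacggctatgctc
In the Cxcl10 promoter the capitals mark, from left to right, GAAAGTGAAA, which begins 213 bases before the start, the κB match GGGAAATTCC at 159 and the AP-1 match TGAGTCA at 74 bases before it. Gbp5 held TTTCAATTTC, the ISRE motif on the other strand, at 165 and the κB match GGAAATTCCC at 77 bases. Rsad2 held TTTCATTTTC at 120 and TGAGTCA at 87 bases, and Gpr183 held none of the 4 motifs in this window.

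Receptors that detect microbes moved in both directions, while sensors of the cytosol rose. Of 14 TLR genes and co-receptors tested, 5 were higher and 3 lower. Tlr2, whose product pairs with TLR1 or TLR6 on bacterial lipopeptides, was at 268, 334, 242, 381 and 238 CPM in the 5 controls and at 2112, 2416, 2436, 2421 and 2551 CPM with VWF. The lowest culture with VWF, replicate 1, lay far over the highest control, and the log2 fold change was 3.06, SE 0.14, adjusted p = 2.13e-08. Cd14, a co-receptor of TLR4, rose by 2.40 (SE 0.13), Tlr3, the endosomal receptor of double-stranded RNA, by 2.04 (SE 0.16) and Tlr1 by 1.77 (SE 0.23) on the log2 scale, with adjusted p of at most 7.01e-05. The genes that fell were Tlr13, which encodes the receptor of bacterial ribosomal RNA (-1.43, SE 0.16), Cd180, which encodes a TLR4-like protein that restrains TLR4 (-1.23, SE 0.26), and Tlr4 itself (-1.07, SE 0.17). Tlr4 was at 33.8 ± 6.98 CPM in controls and 15.8 ± 3.24 CPM with VWF, and 8 of 10 fits without 1 culture called it.

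Of 11 cytosolic sensors of nucleic acids tested, 9 rose and none fell. Ifih1, which encodes the RNA sensor MDA5, went from 23.7 ± 5.06 to 323 ± 62.6 CPM (3.80, SE 0.18, adjusted p = 2.17e-08). Ddx58, which encodes RIG-I, Zbp1, whose product senses Z-form nucleic acids, and Mndal, of the IFI200 family, rose by 2.74, 2.69 and 2.62 on the log2 scale. Among inflammasome and pyroptosis genes 9 of 15 tested were higher and none lower. Nod2, the cytosolic sensor of bacterial muramyl dipeptide, was at 2.06, 1.44, 1.79, 2.44 and 1.84 CPM in controls and 79.1, 63.2, 56.8, 56.7 and 76.8 CPM with VWF. The lowest VWF-treated culture lay far above the highest control, and the log2 fold change was 5.14, SE 0.17, adjusted p = 2.72e-09. Nlrp3, which encodes the sensor of the best known inflammasome, was at 49.8, 54.2, 53.5, 107 and 68.1 CPM in controls and 702, 514, 416, 459 and 786 CPM with VWF. In both groups the cultures that stood apart, Control 3.5 h replicate 4 and VWF 3.5 h replicates 1 and 5, were highest, and the groups did not overlap (3.15, SE 0.26, adjusted p = 1.69e-06). Mefv, which encodes pyrin, and Nod1 rose by 4.71 (SE 0.25) and 2.67 (SE 0.15). Of 12 genes tested in the list of VWF-binding receptors, 2 were higher and 1 lower. Itgal, the αL integrin chain, rose by 2.29 (SE 0.24), and Siglece, an inhibitory receptor of sialic acids, by 2.16 (SE 0.12). The study names Siglec-5, and not Siglece, among the receptors implicated in VWF binding. Itgb3, the β3 integrin chain, was lower (-1.08, SE 0.20) but did not pass the expression filter without Control 3.5 h replicate 4.

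NF-κB subunits and their inhibitors rose as a broad set, 16 of 21 tested and none lower, with a median log2 fold change of 2.26. NF-κB is held in the cytosol by IκB proteins, and its targets include those inhibitors. Nfkbiz, which encodes the nuclear protein IκBζ, was at 21.1, 17.6, 14.2, 23.3 and 15.9 CPM in controls and 480.2, 498, 460.2, 393 and 497 CPM with VWF. No VWF-treated culture came near the controls, and the log2 fold change was 4.69, SE 0.16, adjusted p = 2.69e-09. Traf1, a signalling adaptor of TNF receptors, rose by 5.32 (SE 0.21), and Tnip1 and Nfkbie, both inhibitors of the pathway, by 3.14 and 3.14 (SE 0.13 and 0.19).

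AP-1, ATF, EGR and Maf factors were split, with 4 of 17 tested higher and 3 lower. Batf and Batf2, AP-1 family members that lack a transactivation domain, rose by 3.93 (SE 0.19) and 3.42 (SE 0.22), Nfil3 by 1.56 and Junb by 1.31. The immediate early genes Jun, Egr2 and Fos fell. Jun was at 151, 147, 134, 179.6 and 156 CPM in controls and 42.5, 37.3, 41.2, 43.2 and 50.9 CPM with VWF. The groups lay well apart, and the log2 fold change was -1.80, SE 0.10, adjusted p = 7.18e-08. For Egr2 and Fos the log2 fold changes were -1.27, SE 0.14 and -1.23, SE 0.27, and Fos was highest in controls 4 and 5.

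The transcription factors of the macrophage lineage and related families held the largest share of genes that fell, 20 of 44 tested, beside 9 that rose. Myc, a driver of growth and proliferation, was at 56, 50.3, 56.5, 70.9 and 76.8 CPM in controls and 14.5, 12.2, 11.9, 12.4 and 15.2 CPM with VWF. Its highest VWF-treated culture, replicate 5, lay far under the lowest control (-2.20, SE 0.13, adjusted p = 1.3e-07). Nr4a1, an orphan nuclear receptor of the immediate early class, went from 41.3 ± 14.2 to 6.61 ± 0.796 CPM (-2.61, SE 0.23) and Hhex, a homeobox gene of early haematopoiesis, from 51 ± 9.27 to 11.9 ± 3.94 CPM (-2.08, SE 0.21). Id2, an inhibitor of basic helix-loop-helix factors, fell from 1265 ± 121 to 365 ± 50.5 CPM (-1.77, SE 0.11) and was among the 10 largest losses in CPM. Also lower, with log2 fold changes between -1.09 and -2.01, were the nuclear receptors Pparg and Rxra, the myeloid factors Cebpa, Klf4 and Fli1, the MEF2 genes Mef2a, Mef2c and Mef2d, Tfeb, a regulator of lysosomal genes, and Id1 and Id3. The factors that rose included Tfec, a relative of TFEB (2.86, SE 0.13), Hivep3 (2.17, SE 0.25), Cebpd, of acute phase responses (2.09, SE 0.18), and Klf7 (1.80, SE 0.29). Of the interferon regulatory factors, Irf1, Irf9 and Irf7 rose by 3.01, 1.77 and 1.67 among 7 tested, and none fell.

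Chromatin regulators moved both ways, 5 of 42 higher and 6 lower. The histone methyltransferase gene Setdb2 and Prdm1, which encodes the repressor BLIMP-1, rose by 2.55 (SE 0.23) and 2.10 (SE 0.16), and Kdm4a, a histone demethylase gene, by 1.71. Both DNA methyltransferase genes of the list that were called fell. Dnmt3a, the de novo enzyme, was at 139, 142, 163, 223 and 182 CPM in controls and 61.3, 50.5, 51.1, 48.7 and 68.7 CPM with VWF. All VWF-treated cultures lay below all controls (-1.57, SE 0.15, adjusted p = 4.71e-06). For Dnmt1, the maintenance enzyme, the log2 fold change was -1.41, SE 0.26. Without Control 3.5 h replicate 4, which had the highest Dnmt3a, 3 of the 42 genes were called lower.

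Feedback inhibitors of cytokine signalling rose, while phosphatases and regulators that act downstream of G proteins and growth factors moved in both directions. In the JAK, STAT and SOCS list 9 of 20 were higher and none lower. Socs3, whose product blocks signalling by the IL-6 receptor family, was at 12.5, 8.19, 3.14, 9.01 and 3.99 CPM in controls and 1092, 1229, 1258, 1056 and 1199.9 CPM with VWF. The 5 VWF-treated cultures differed little from each other, and the log2 fold change was 7.33, SE 0.40, adjusted p = 6.5e-08. Socs1 and Usp18, inhibitors of interferon receptors, rose by 6.04 (SE 0.27) and 5.26 (SE 0.34), and Cish by 3.52 (SE 0.28).

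Of 9 MAP kinase phosphatase genes, 2 rose and 3 fell. Dusp16 and Dusp2 were higher, by 2.32 (SE 0.17) and 2.28 (SE 0.18). Dusp6, which encodes the cytoplasmic phosphatase of ERK and is itself a target of ERK signalling, was at 102, 96.4, 102, 102 and 107 CPM in controls and 13.2, 9.48, 9.87, 19 and 13.7 CPM with VWF. The controls were nearly alike, the highest VWF-treated culture was replicate 4, and the log2 fold change was -2.94, SE 0.18, adjusted p = 1.15e-07. Dusp3 and Dusp7 were lower by close to the threshold (-1.05, SE 0.10 and -1.01, SE 0.17), and neither was called without VWF 3.5 h replicate 4. Among kinases of the cascade, Map3k8, which links TLRs to ERK, rose by 2.52 (SE 0.09), Mapkapk2, a kinase downstream of p38, by 1.41 (SE 0.13), and Map3k1 was lower (-1.53, SE 0.10), with 5 of 22 higher and 1 lower in all.

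Of 18 genes for mRNA decay, 5 were higher and 3 lower. The endonuclease genes Zc3h12a, which encodes Regnase-1, and Zc3h12c rose by 2.68 (SE 0.14) and 2.17 (SE 0.25), and N4bp1, an RNA-binding inhibitor of inflammatory signals, by 2.70 (SE 0.11). Of the binding proteins of AU-rich elements, Zfp36, which encodes tristetraprolin, rose by 1.39 (SE 0.19), and Zfp36l2 fell. Zfp36l2 was at 213, 212, 258, 384 and 359 CPM in controls and 53.7, 34.1, 40.2, 49.8 and 60.2 CPM with VWF. Controls 4 and 5 were the highest, and the groups did not overlap (-2.55, SE 0.22, adjusted p = 1.99e-06). Zfp36l1 was lower too (-2.46, SE 0.18), but 55.9% of its exon bases overlap the gene Gm26669, and reads of both cannot be told apart where strand was not used. Samd4, which encodes an RNA-binding repressor of translation, was the third gene that fell (-1.29, SE 0.21), a call made in 9 of 10 fits without 1 culture. The remaining gene that rose, Pde4b, is a cyclic AMP phosphodiesterase gene that the list holds although its product does not act in mRNA decay.

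Regulators of G proteins and cyclic AMP were lower in 4 of 23 and higher in 4, and Rasgrp3 was among the 10 largest falls of all genes. Rasgrp3, an exchange factor that activates Ras and Rap on diacylglycerol, was at 22, 27.9, 19.5, 45.6 and 29.8 CPM in controls and 2.20, 2.03, 1.18, 1.88 and 1.51 CPM with VWF. Control replicate 4 was the highest, VWF-treated replicate 3 was the lowest culture, and the log2 fold change was -4.01, SE 0.27, adjusted p = 2.64e-07. Rgs1, a GTPase-activating protein that dampens chemokine receptors, was at 278, 334, 267, 357 and 359 CPM in controls and 51, 64.8, 51.9, 60.6 and 53.5 CPM with VWF. The highest VWF-treated culture, replicate 2, lay far below the lowest control (-2.47, SE 0.11, adjusted p = 1.75e-08). Rgs2 fell as well (-2.94, SE 0.17). The genes that rose were Pde4b (3.95, SE 0.26), Gem, a small GTPase gene (1.83, SE 0.20), Grk3, a receptor kinase gene (1.40, SE 0.21), and Rgs16 (1.01, SE 0.23), which 5 of 10 fits without 1 culture called.

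Phosphoinositide and lipid signalling genes were split evenly, 8 of 32 higher and 7 lower. Pik3r6 and Pik3r5, the regulatory subunits of PI3Kγ, rose by 2.25 (SE 0.12) and 1.84 (SE 0.13), and Gab1 and Plpp3 by 1.96 and 2.07. Of the genes that fell, Prkch, a protein kinase C gene, went from 90.7 ± 14.1 to 18.5 ± 1.17 CPM (-2.26, SE 0.11), Dgkz, a diacylglycerol kinase gene, from 375 ± 71.4 to 114 ± 18.4 CPM (-1.68, SE 0.15) and Dgkd, of the same family, from 133 ± 11.7 to 60.6 ± 8.76 CPM (-1.10, SE 0.11). The number called lower was 4 without Control 3.5 h replicate 4, and the number called higher was 5 with scaling by total count.

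Among secreted products, chemokines and cytokines beyond the leading ones rose, and the growth factor and fibrinolysis genes contained clear losses. Of 19 chemokine genes tested other than Ccl2, Ccl3 and Ccl4, 14 were higher and 1 lower, and 7 of the 14 passed the filter only in VWF-treated cultures. Cxcl10, a ligand of CXCR3, went from 7.28 ± 3.88 to 3594 ± 1093 CPM (8.97, SE 0.51), Ccl5, which attracts T cells and monocytes, from 2.31 ± 0.910 to 820.2 ± 175 CPM (8.50, SE 0.33), and Cxcl3, which attracts neutrophils, from 1.03 ± 0.205 to 244 ± 48 CPM (7.91, SE 0.20). Cxcl14 was the chemokine gene that fell, from 105 ± 16.4 to 31.6 ± 2.74 CPM (-1.70, SE 0.12). Of 19 cytokine genes other than Tnf, Il6 and Il1b, 10 were higher and none lower, and 6 of the 10 passed the filter only in VWF-treated cultures. The number called lower was 2 without VWF 3.5 h replicate 1 and 3 with scaling by total count. The genes that rose included Il1a (8.69, SE 0.27), Il27, which encodes a subunit of IL-27 (6.65, SE 0.22), and the interferon gene Ifnb1, which reached 3.94 ± 1.30 CPM with VWF and 0.0417 ± 0.0558 CPM in controls (6.64, SE 0.61).

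Growth and angiogenic factors divided, with 5 of 22 higher and 3 lower. Angptl2, an angiopoietin-like secreted protein, was at 239, 256, 213, 355 and 305 CPM in controls and 52.8, 37.5, 27.6, 27 and 43.9 CPM with VWF. The ranges of the groups lay far apart (-2.82, SE 0.22, adjusted p = 9.04e-07). Gdf15, a stress-induced member of the TGF-β family, went from 296 ± 82.2 to 45.2 ± 6.98 CPM (-2.68, SE 0.19), and Vegfa, the main angiogenic factor, from 159 ± 31.8 to 75.3 ± 19.1 CPM (-1.05, SE 0.19), a call made in 8 of 10 fits without 1 culture. Higher were the semaphorin genes Sema4a (2.81, SE 0.15) and Sema4c (2.08, SE 0.11), Pdgfb, the B chain of platelet-derived growth factor (1.74, SE 0.09), and Tgfbi, a matrix protein induced by TGF-β (1.55, SE 0.18).

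Coagulation and fibrinolysis genes, of interest since VWF acts in haemostasis, showed a loss of Plau. Plau, which encodes urokinase, the activator of plasminogen on cells, was at 2563, 2938, 2422, 2137 and 2317 CPM in controls and 562, 526, 509.8, 328 and 395 CPM with VWF. The mean fell by 2012 CPM, the largest loss of all genes, and the lowest control lay far above the highest VWF-treated culture (-2.39, SE 0.16, adjusted p = 3.03e-07). Thbd, which encodes the anticoagulant receptor thrombomodulin, was lower at 2.52 ± 1.33 CPM against 8.46 ± 2.17 CPM (-1.71, SE 0.34), and Procr, the endothelial protein C receptor, and F10, coagulation factor X, were higher (2.38, SE 0.13 and 2.13, SE 0.21). In all, 2 of 18 were higher and 3 lower. Complement C3 rose from 14.6 ± 6.68 to 169.9 ± 43.5 CPM (3.57, SE 0.31), and C5ar2, a receptor of C5a, was lower (-1.45, SE 0.15), though not called without Control 3.5 h replicate 5. Of 20 matrix proteases and inhibitors 4 were higher, led by Mmp14, a membrane-bound matrix protease gene (3.50, SE 0.30), and 1, Mmp19, was lower (-1.21, SE 0.19).

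Receptors for chemotactic and lipid signals were called in both directions, and the gene that fell most in the data belongs to them. Of 18 chemoattractant receptors 5 were higher (3 with scaling by total count) and 5 lower. The filter was passed only in VWF-treated cultures by 2 of the 5 that rose, and only in controls by 3 of the 5 that fell. Gpr183 (ENSMUSG00000051212, chromosome 14 of GRCm38, 121952551 to 121965195), also called EBI2, guides cells towards oxysterols that are made from 25-hydroxycholesterol. It was at 50.9, 58.3, 42.7, 42.2 and 40.3 CPM in controls and 1.07, 1.24, 0.916, 1.05 and 0.952 CPM with VWF. Expression with VWF was close to 1 CPM in each culture (-5.46, SE 0.15, adjusted p = 7.27e-10). Ch25h, the enzyme that makes 25-hydroxycholesterol, rose in the same cultures from 9.05 ± 1.01 to 364 ± 89 CPM (5.36, SE 0.18). Cxcr4, the receptor of CXCL12, was at 150.3, 191, 161, 176 and 160.1 CPM in controls and 42.4, 43.4, 33.1, 24.1 and 29.4 CPM with VWF. The VWF-treated replicates 1 and 2 were the highest of their group, and all were below the controls (-2.25, SE 0.16, adjusted p = 5.19e-07). S1pr1, a receptor of sphingosine 1-phosphate, was lower (-1.07, SE 0.11). In the other direction Fpr1, a receptor of formyl peptides, was at 0.264, 0.0971, 0.0307, 0.335 and 0.125 CPM in controls and 16.6, 17.2, 15.4, 23.3 and 16.5 CPM with VWF. The controls lay near 0, and the log2 fold change was 6.67, SE 0.39, adjusted p = 9.86e-08. Fpr2 rose as well (5.60, SE 0.27) with 12.3% of its 100-base windows shared with other genes, and Ccrl2, a chemerin-binding receptor, by 3.05 (SE 0.20).

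Among receptors of purines, lipids and metabolites 9 of 20 were higher and 5 lower. The filter was passed only in VWF-treated cultures by 4 of the 9, and only in controls by 4 of the 5. Lpar6 (ENSMUSG00000033446, chromosome 14 of GRCm38, 73237895 to 73243294), a receptor of lysophosphatidic acid, was at 67.5, 62.6, 64.7, 59.2 and 58.2 CPM in controls and 2.38, 1.79, 1.47, 4.03 and 2.54 CPM with VWF. Even VWF-treated replicate 4, the highest of its group, was far below the controls (-4.65, SE 0.24, adjusted p = 3.81e-08). Cnr2 (ENSMUSG00000062585, chromosome 4 of GRCm38, 135895394 to 135920207), the cannabinoid receptor of leukocytes, was at 25.2, 25.2, 35.8, 37.6 and 38.4 CPM in controls and 2.59, 1.42, 1.49, 1.07 and 2.07 CPM with VWF. Controls 1 and 2 were lower than the others, and no culture of the groups overlapped (-4.18, SE 0.25, adjusted p = 1.15e-07). Gpr146 was also lower (-2.96, SE 0.14). Gpr84, a receptor of medium-chain fatty acids, was at 8.13, 9.05, 8.60, 18.3 and 11.6 CPM in controls and 279, 276, 254, 294 and 374 CPM with VWF. The log2 fold change was 4.76, SE 0.25, adjusted p = 3.92e-08, every VWF-treated culture lay above the controls, and 39.5% of its exon bases overlap Gm49482. Adora2a, the adenosine receptor that limits inflammation, and Hcar2, the receptor of nicotinic acid, rose from 1.10 ± 0.302 and 1.20 ± 0.631 CPM (5.91, SE 0.20 and 5.32, SE 0.35).

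Of 41 cytokine and growth factor receptors, 14 were higher and 1 lower. Il15ra rose by 3.39 (SE 0.19), and Tnfrsf1b, the TNF receptor of leukocytes, from 614 ± 74.7 to 3399 ± 250.3 CPM (2.50, SE 0.10). Il10ra and Notch2 were higher by 1.75 and 2.02, and Il6ra was the gene that fell (-1.23, SE 0.13). The number called lower was 4 without VWF 3.5 h replicate 1, and scaling by total count gave 9 higher and 5 lower.

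Costimulatory and checkpoint molecules included 8 of 25 that rose and 2 that fell. Cd40, which receives help from T cells, was at 13, 10.4, 10.5, 9.95 and 11.4 CPM in controls and 571, 723, 866, 876 and 638 CPM with VWF. All VWF-treated cultures were far above the controls (6.08, SE 0.16, adjusted p = 6.26e-10). Cd69 (7.51, SE 0.40), Icosl, the ligand of ICOS (5.17, SE 0.23), and Cd274, which encodes PD-L1 (3.16, SE 0.19), were higher as well. The inhibitory receptor gene Cd200r1 went from 77.6 ± 3.94 to 27.5 ± 1.69 CPM (-1.47, SE 0.07) and Vsir, which encodes the checkpoint protein VISTA, from 509 ± 41.5 to 203 ± 20.5 CPM (-1.30, SE 0.09). Adhesion molecules were higher in 7 of 28, with Icam1 (4.38, SE 0.27), Vcam1 (3.79, SE 0.16) and the junctional protein gene F11r (3.83, SE 0.15) in front.

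Scavenger and phagocytic receptors were called higher in 7 of 41 and lower in 2. Clec4e, the C-type lectin Mincle that binds mycobacterial glycolipids, went from 74.5 ± 23.8 to 1331 ± 67.9 CPM (4.19, SE 0.22). Marco, a scavenger receptor of bacteria and particles, was at 5.04, 5.79, 7.95, 5.43 and 7.16 CPM in controls and 75.8, 74.3, 106, 160.3 and 111 CPM with VWF. VWF-treated replicates 1 and 2 were the lowest of their group and still far above the controls (4.10, SE 0.24, adjusted p = 9.45e-08). Cd300lb, an activating receptor of the CD300 family, was at 212, 258, 287, 322 and 306 CPM in controls and 26.8, 22.5, 19.2, 16 and 25.4 CPM with VWF. Every VWF-treated culture was far under the lowest control (-3.62, SE 0.17, adjusted p = 2.1e-08). Mertk, the receptor by which macrophages take up apoptotic cells and a marker of mature macrophages, was at 69.7, 75.9, 50.1, 134 and 73.7 CPM in controls and 15.1, 11.8, 8.0, 9.76 and 17.5 CPM with VWF. Control replicate 4 was far above its group, and without it the log2 fold change was -2.42, still with no overlap of the groups (-2.66, SE 0.29, adjusted p = 1.49e-05 with all 10 cultures).

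**Figure D2:**
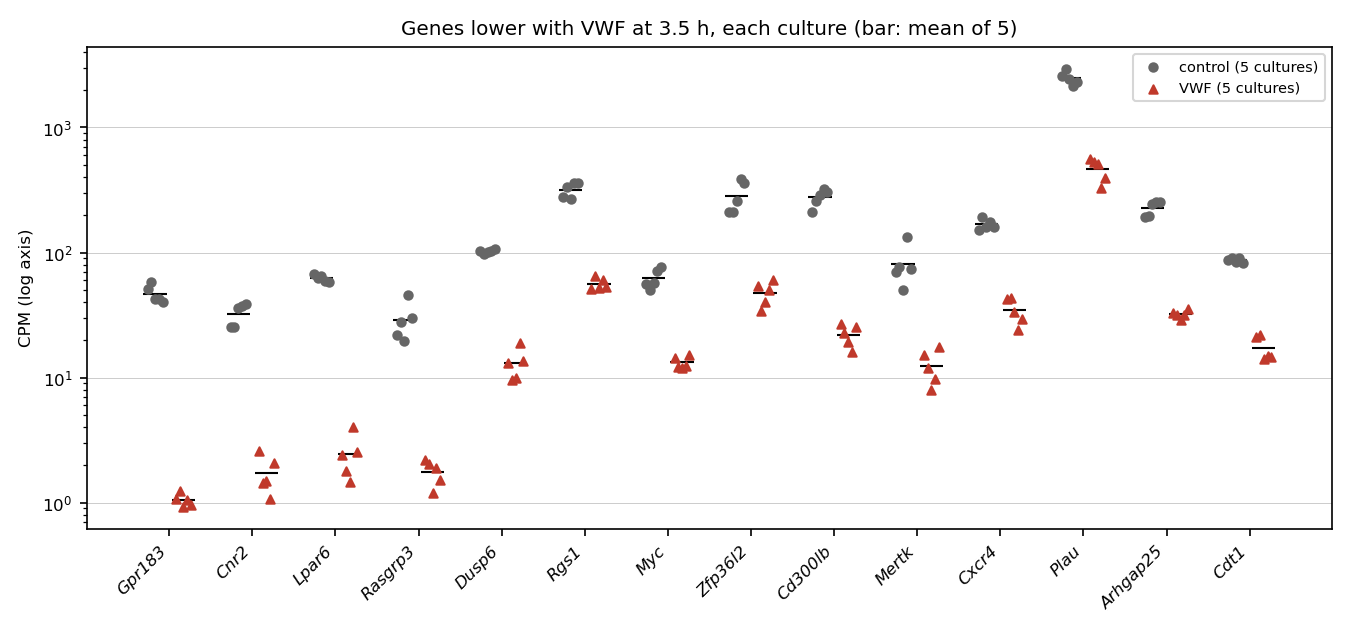
CPM (log axis) of 14 genes called lower with VWF at 3.5 h in each of 5 control (grey circles) and 5 VWF-treated cultures (red triangles), with the mean of each group as a bar. The genes shown were chosen among those whose groups did not overlap, so their separation follows from the choice. Gpr183, Cnr2, Lpar6 and Rasgrp3 lie between 0.916 and 4.03 CPM with VWF.

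Genes of antigen presentation by MHC class I rose in 11 of 23 tested and fell in none, with a median log2 fold change of 1.00. Tap1, which moves peptides into the endoplasmic reticulum, went from 25.1 ± 5.01 to 188 ± 32.9 CPM (2.93, SE 0.16) and Psme2, a proteasome activator subunit, from 127 ± 30.7 to 436 ± 119 CPM (1.81, SE 0.22). Near-identical class I genes such as H2-Q6 and H2-Q7 (2.20, SE 0.22 and 1.98, SE 0.26) share 10.8% and 12.0% of their 100-base windows with other genes, and their values are uncertain. Of the class II pathway 2 of 11 were higher, and March1, a ubiquitin ligase that removes class II molecules from the surface, led them (2.26, SE 0.21), and 5 of 10 fits without 1 culture called 1 of the 2. Interferon-induced GTPases, which attack vacuoles and viruses inside cells, were higher in the 14 of 20 listed genes that passed the filter, and 10 of these passed it only in VWF-treated cultures. Gbp5 (ENSMUSG00000105504, chromosome 3 of GRCm38, 142493978 to 142522344), which promotes inflammasome assembly, was at 1.13, 1.30, 0.674, 1.35 and 0.814 CPM in controls and 590.3, 667, 701, 845 and 897 CPM with VWF. All controls were near 1 CPM (9.48, SE 0.25, adjusted p = 6.26e-10). Mx2, Mx1 and Iigp1 rose by 7.37 (SE 0.29), 6.77 (SE 0.41) and 6.42 (SE 0.35).

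Metabolic lists held single enzymes and transporters with large changes beside members that were not called. Acod1, which makes itaconate from an intermediate of the Krebs cycle, was at 14.5, 14.7, 8.17, 30.1 and 10.3 CPM in controls and 4208, 4061, 4081, 4845 and 5512 CPM with VWF. Control replicate 4 was the highest control, and the difference between the groups was among the 10 largest in CPM (8.22, SE 0.40, adjusted p = 2.66e-08). Ptges, the inducible prostaglandin E synthase, was at 3.12, 2.21, 2.44, 2.21 and 1.98 CPM in controls and 162, 159.6, 171, 166 and 163 CPM with VWF. The 5 cultures of each group lay close together (6.13, SE 0.13, adjusted p = 3.92e-10). Ptgs2, the cyclooxygenase upstream of it, rose by 3.35 (SE 0.36), and these 2 were the genes called among 15 of eicosanoid synthesis. In the arginine list 5 of 19 were higher and none lower, including Slc7a2, the arginine transporter (4.12, SE 0.22), Ass1, which remakes arginine from citrulline (2.62, SE 0.23, with 26.9% of its windows shared), and Gch1, of tetrahydrobiopterin synthesis (1.68, SE 0.11). Rsad2, which encodes viperin, and its neighbour in function Cmpk2, a mitochondrial nucleotide kinase, rose by 6.74 (SE 0.37) and 6.61 (SE 0.35), while the nucleoside transporter gene Slc29a3 was lower (-1.43, SE 0.14).

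Transport and redox genes rose in part, 6 of 24 solute carriers and 7 of 30 antioxidant and metal genes, against 1 and 2 lower. Of the solute carriers, 2 were lower without VWF 3.5 h replicate 1 and 4 with scaling by total count. Slc7a11, the cystine carrier that feeds glutathione synthesis, was at 11.2, 9.15, 12.8, 16.7 and 11.1 CPM in controls and 277, 233, 284, 294 and 376 CPM with VWF. The groups were widely separated (4.61, SE 0.19, adjusted p = 7.3e-09). Slc2a6, a hexose carrier gene, went from 9.67 ± 1.47 to 306 ± 28.3 CPM (5.01, SE 0.12), Sod2, the mitochondrial superoxide dismutase, from 95.2 ± 7.14 to 1163 ± 203 CPM (3.64, SE 0.13) and Slc39a14, a zinc and iron importer, from 23.9 ± 5.26 to 212 ± 36.9 CPM (3.18, SE 0.17). Slc30a1, the zinc exporter, moved the other way, at 143, 170.1, 109, 125 and 98.3 CPM in controls and 31, 30.3, 29.5, 35 and 29.1 CPM with VWF. The VWF-treated cultures were nearly equal and far below the controls (-2.03, SE 0.14, adjusted p = 4.1e-07). Gclc, the rate-limiting enzyme of glutathione synthesis, was lower (-1.24, SE 0.14), as was the glutamine carrier gene Slc1a5 (-1.21, SE 0.15). Iron genes were called in both directions, 3 of 20 each way: Lcn2, which traps bacterial siderophores, the ferroxidase gene Cp and the mitochondrial iron importer Slc25a37 rose (5.87, SE 0.45, 3.16, SE 0.23 and 2.58, SE 0.17), while the exporters of haem and iron Flvcr1 and Slc40a1 and the ferrireductase gene Steap3 were lower (-1.21, SE 0.11, -1.12, SE 0.14 and -1.04, SE 0.12).

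Sterol and lipid genes changed little as lists. Of 20 LXR target and cholesterol efflux genes, Ch25h and the cholesterol exporter gene Abca1 (1.25, SE 0.17) were higher, and Scd2, a fatty acid desaturase gene (-1.90, SE 0.19), Arl4c (-1.68, SE 0.09) and Nceh1, a cholesterol ester hydrolase gene (-1.18, SE 0.10), were lower. In cholesterol synthesis and uptake 1 of 20, Dhcr7, was called (-1.13, SE 0.15). The 3 lists without a call gave log2 fold changes between -0.05 and 0.23 for ribosomal proteins, between -0.15 and 0.44 for the respiratory chain and ATP synthase, and between -0.78 and 0.96 for ribosome biogenesis. At an adjusted p under 0.05 without the fold threshold, 0, 1 and 15 of their genes passed, and DESeq2 also called none of them at both thresholds. Of lysosomal genes 3 of 54 were higher, among them Acp5 (1.70, SE 0.13) and Ctsc (1.62, SE 0.09), and none was lower, except that 3 were with scaling by total count. Without the fold threshold, 6 of the 54 were higher and 17 lower, beside 22.8% and 20.8% of all genes tested.

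Genes of survival and death rose more often than they fell, 14 of 36 against 2. The 14 include genes with other main roles, Cdkn1a, of cell cycle arrest, and Cd274, of immune checkpoints. Bcl2a1d, an antiapoptotic BCL2 relative with near-identical copies that share 54.7% of its windows, was at 8.75, 8.45, 10.2, 8.55 and 7.64 CPM in controls and 178, 269.8, 394, 369 and 240.05 CPM with VWF. The value is uncertain between the copies, and the groups did not overlap (5.08, SE 0.22, adjusted p = 1.29e-08). Cdkn1a, which encodes the cell cycle inhibitor p21, was at 181, 161, 129.99, 139 and 138 CPM in controls and 1374, 1594, 1776, 1647 and 1671 CPM with VWF. The lowest VWF-treated culture, replicate 1, was far above the controls (3.45, SE 0.12, adjusted p = 2.73e-09). The initiator caspase gene Casp9 and Bcl2l1, which encodes BCL-XL, were lower (-1.17, SE 0.09 and -1.08, SE 0.11). Stress response genes were higher in 5 of 32, among them Herpud1, of protein degradation at the endoplasmic reticulum (1.68, SE 0.11), and Ppp1r15b, which reverses phosphorylation of eIF2α (1.46, SE 0.06).

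Genes of DNA replication and mitosis moved downward, few of them past the fold threshold. In DNA replication and repair 4 of 27 were lower and none higher, and in mitosis 3 of 33 were lower and none higher. Of these, 3 of the 4 and 2 of the 3 passed the filter only in controls. Without the fold threshold, 13 replication and repair genes were lower and none higher, and 15 mitosis genes were lower and 1 higher. The share lower over all genes tested was 20.8% by that measure. The median log2 fold changes of these lists were -0.44 and -0.52. Among G1 cyclins, their inhibitors and the MYC network 5 of 27 were lower and 3 higher. Cdt1, which licenses replication origins, was at 87.4, 90.7, 84.5, 90 and 83 CPM in controls and 21, 22, 14, 14.8 and 14.7 CPM with VWF. VWF-treated replicates 1 and 2 were the highest of their group and still far below the controls (-2.30, SE 0.14, adjusted p = 1.58e-07). E2f2, a factor that turns on replication genes, was lower (-1.97, SE 0.27), as was Cdc25b, a phosphatase that opens mitosis (-1.43, SE 0.15). Ccnd1, the cyclin that answers growth factors, was at 127, 163, 168, 317 and 274 CPM in controls and 62.6, 35.8, 25, 29.5 and 61.4 CPM with VWF. Controls 4 and 5 were by far the highest, VWF-treated replicates 1 and 5 were the highest of theirs, and the groups did not overlap (-2.26, SE 0.33, adjusted p = 0.000188). Of the MYC network, the repressor gene Mxd1 rose (2.75, SE 0.16) and Mnt was lower (-2.72, SE 0.24). The small counts past the fold threshold rested on single cultures. Replication and repair had 1 gene called lower without Control 3.5 h replicate 4 and 6 without VWF 3.5 h replicate 1. Mitosis had 1 without VWF 3.5 h replicate 3 and 8 without the 3 cultures that stood apart.

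Genes of small GTPases of cell shape and of the actin skeleton, which set cell shape and movement, were higher in 17 of 67 and lower in 7. Rnd1, an antagonist of RhoA, was at 3.54, 2.12, 1.30, 2.20 and 1.69 CPM in controls and 168, 206, 265, 219 and 194 CPM with VWF. The groups were far apart (6.62, SE 0.27, adjusted p = 8.04e-09). Cdc42ep2, an effector of CDC42, Arhgef3, an exchange factor of RhoA, and Rhou rose by 4.35, 3.46 and 3.27. Arhgap25, a GTPase-activating protein of Rac in phagocytes, was at 191, 197, 245, 253 and 253 CPM in controls and 32.7, 31.7, 28.9, 31.8 and 35.2 CPM with VWF. Each VWF-treated culture was far below each control (-2.80, SE 0.10, adjusted p = 4.75e-09). The Rac exchange factor gene Tiam1 (-2.41, SE 0.25), Arhgap27 (-2.22, SE 0.22) and Rhov (-2.02, SE 0.18) were lower as well.

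**Figure D3:**
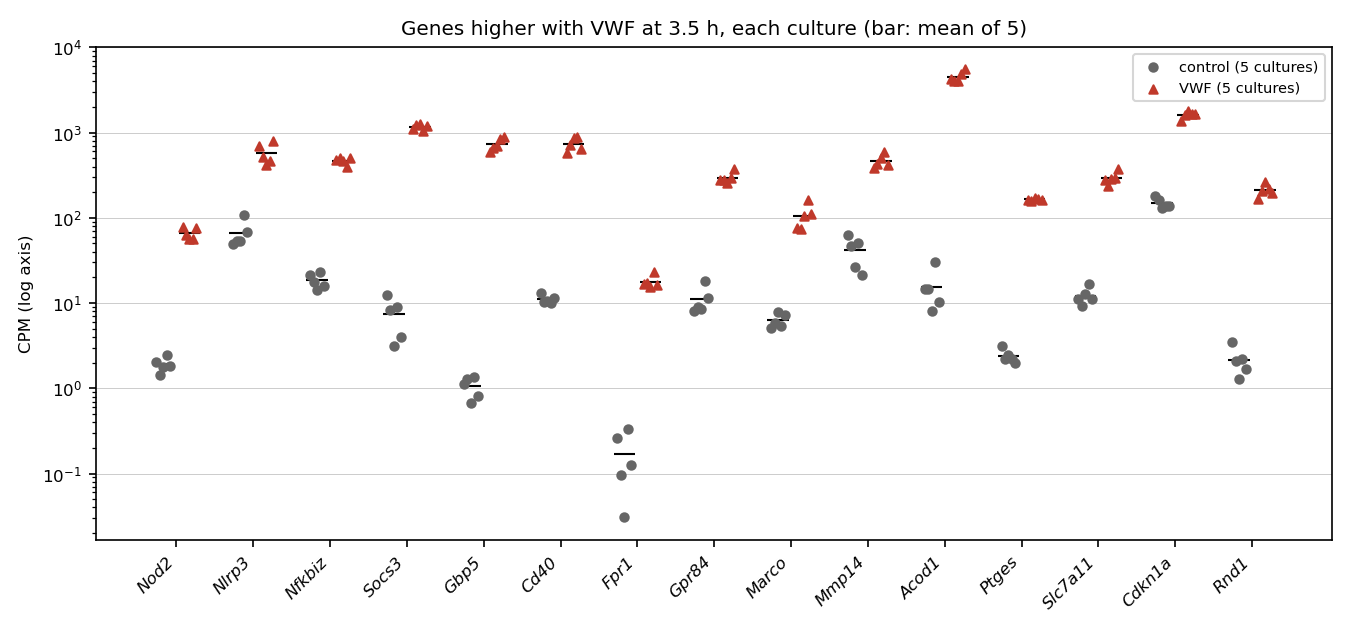
CPM (log axis) of 15 genes called higher with VWF at 3.5 h in each of 5 control (grey circles) and 5 VWF-treated cultures (red triangles), with the mean of each group as a bar. The genes shown were chosen among those whose groups did not overlap, so their separation follows from the choice. Acod1 reaches the highest level, between 4061 and 5512 CPM with VWF.

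Outside the lists, the rule for the largest changes added few genes. Genes that fell furthest with a mean of at least 5 CPM included Engase, a cytosolic glycosidase gene (-3.65, SE 0.15), Nanos1, a translational repressor gene (-3.16, SE 0.19), and Zfp395 (-3.03, SE 0.23) beside Gpr183, Lpar6, Cnr2, Rasgrp3, Cd300lb and Gpr146. Of those with the largest losses in CPM, Plau and Id2 were called, and Spp1, which encodes osteopontin, was lower by 0.97 on the log2 scale from 3410.3 ± 342 to 1705 ± 229 CPM, just short of the fold threshold. The other genes with large losses in CPM, among them Psap, Ctsd, Lyz2 and Gpnmb, had log2 fold changes between -0.31 and -0.13. Of the largest gains in CPM, Fth1, the ferritin heavy chain, and Actb were not called (0.51, SE 0.13 and 0.46, SE 0.11), whereas Tnfaip2, Slfn2 and Sqstm1, which encodes the autophagy receptor p62, were (4.10, SE 0.14, 2.50, SE 0.15 and 1.69, SE 0.08). Over all genes, 162 lay within 0.05 of the fold threshold on the log2 scale, and 152 of these had an adjusted p under 0.05.

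Whether the early changes were still present at 16 h was asked in 10 other cultures. Of these, Control 16 h replicate 5 stood apart, with a TMM factor of 0.945 against 1.17 to 1.18 in the other 16 h controls. The values below include it. Without it, 76 genes that fell at 3.5 h were lower at 16 h, in place of 65. Of those that rose, 224 were higher, in place of 223. Single genes were not read at 16 h without this culture. At 16 h 7798 genes were tested and 8.71% called, with 4.55% called higher and 4.15% lower. Of the 453 genes that fell at 3.5 h, 390 were tested at 16 h, and 65 of these were lower and 5 higher. Their median log2 fold change was -0.37 at 16 h and -1.40 at 3.5 h. Of the 753 genes that rose at 3.5 h, 580 were tested at 16 h, and 223 of these were higher and 16 lower. The median log2 fold change of the 580 was 0.68 at 16 h and 1.74 at 3.5 h. The difference between the times was tested as the interaction of treatment and time in 20 cultures, where 5.47% of 8660 genes were called with a more positive and 8.05% with a more negative effect at 16 h. Scaling by total count turned this split, with 612 genes more positive and 570 more negative, in place of 474 and 697. By this test the effect was less negative at 16 h in 254 of the 453 genes and more negative in 10. Of the 753 genes that rose, the effect was less positive in 450 and more positive in 18. The 3.5 h cultures that chose these genes also enter the test, so a return towards 0 is partly given by the choice.

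Named genes that fell followed both courses. Gpr183 was lower by 5.46 at 3.5 h and had a log2 fold change of -1.39 (SE 0.17) at 16 h (interaction 4.09, adjusted p = 4.79e-11). Dusp6, Cxcr4 and Zfp36l2 were at 0.38, 0.72 and 0.14 at 16 h, none of them called at that time. By contrast, Plau was at -2.37 (SE 0.14) at 16 h with an interaction of 0.03, adjusted p = 0.933, Rgs1 at -2.58 (SE 0.21) with an interaction of -0.08, adjusted p = 0.837, and Rasgrp3 at -3.52 (SE 0.20) with an interaction of 0.52, adjusted p = 0.254. The interaction did not pass the thresholds for these 3, which does not show that their effects were equal at both times. For Egr2 and Nr4a1 the effect was further from 0 at 16 h, at -3.96 (SE 0.23) and -4.48 (SE 0.27) (interaction -2.67, adjusted p = 1.12e-07 and -1.84, adjusted p = 0.000231). Of the genes that rose, Marco and Tgfbi had larger effects at 16 h, at 7.34 (SE 0.24) and 3.85 (SE 0.23), with interactions of 3.26, adjusted p = 5.8e-08 and 2.31, adjusted p = 3.53e-06, whereas Nlrp3, Cd40 and Socs3 had smaller ones, at -0.52 (SE 0.32), 1.31 (SE 0.08) and 2.65 (SE 0.35), each with a called interaction.

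**Figure D4:**
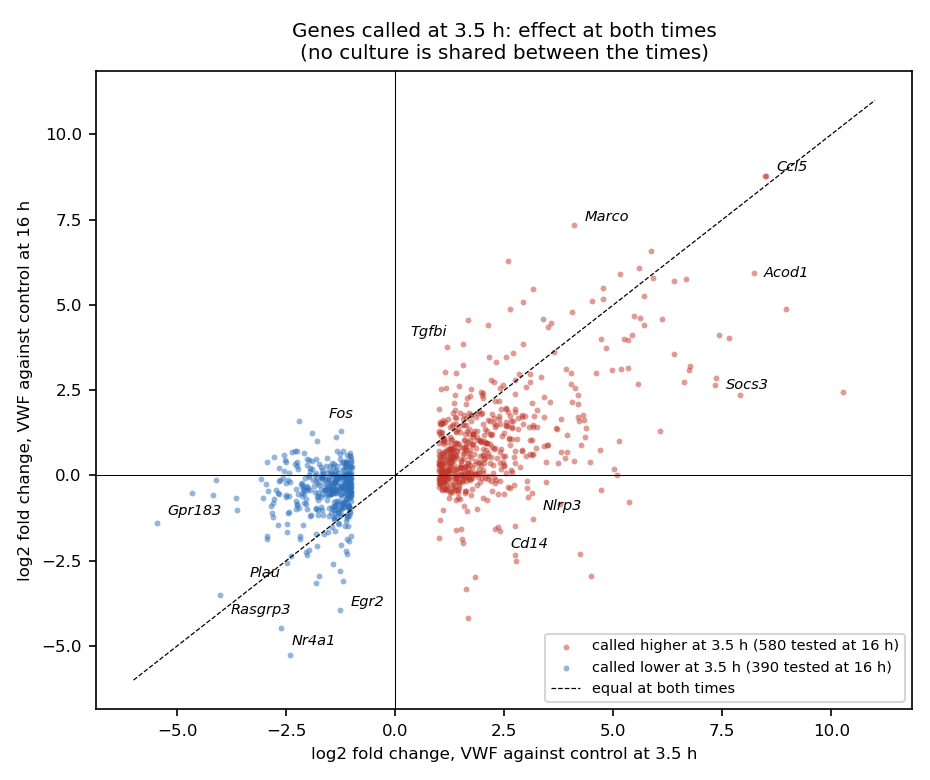
Log2 fold change of VWF against control at 3.5 h (x axis) and at 16 h (y axis) for the 580 genes called higher (red) and the 390 called lower (blue) at 3.5 h that were also tested at 16 h, with a dashed line where both are equal. Most points lie closer to 0 on the y axis than on the x axis, while Rasgrp3 and Plau lie near the dashed line and Marco and Tgfbi above it.

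The named genes were also compared directly between 5 cultures with VWF and 4 with LPS at 3.5 h, without the controls, and the genes given were picked after their values were seen. Of 7500 genes tested, 4.71% were called higher and 6.71% lower with VWF than with LPS, which is 353 and 503 genes. Scaling by total count turned this split to 751 higher and 340 lower. Of the 753 genes that VWF raised against control, 90 were higher and 213 lower with VWF than with LPS. Of the 453 genes that VWF lowered, 254 passed the filter of this comparison, and 45 of these were higher and 32 lower with VWF than with LPS. Pdgfb was at 891, 806, 979, 842 and 1041 CPM with VWF and averaged 119 ± 18.7 CPM over the 4 LPS-treated cultures (2.96, SE 0.13). Icosl (2.85, SE 0.24), Gpr84 (2.73, SE 0.16), Marco (2.62, SE 0.26), Tgfbi (2.59, SE 0.17) and Herpud1 (2.59, SE 0.12) were likewise higher with VWF. Ifnb1 (-5.42, SE 0.30), Iigp1 (-3.47, SE 0.24), Il27 (-3.02, SE 0.21), Rsad2 (-2.76, SE 0.22) and Socs1 (-2.58, SE 0.22) were among those that were lower. Nfkbiz, Sod2 and Cdkn1a differed by 0.24 (SE 0.11), 0.07 (SE 0.14) and 0.00 (SE 0.11) and were not called. Of genes that fell, Rgs1, Rgs2 and Slc30a1 were lower with VWF than with LPS (-2.66, SE 0.11, -2.44, SE 0.16 and -2.31, SE 0.11), and Cxcr4, Egr2 and Dgkz were higher (1.94, SE 0.24, 1.84, SE 0.13 and 1.65, SE 0.17).

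**Figure D5:**
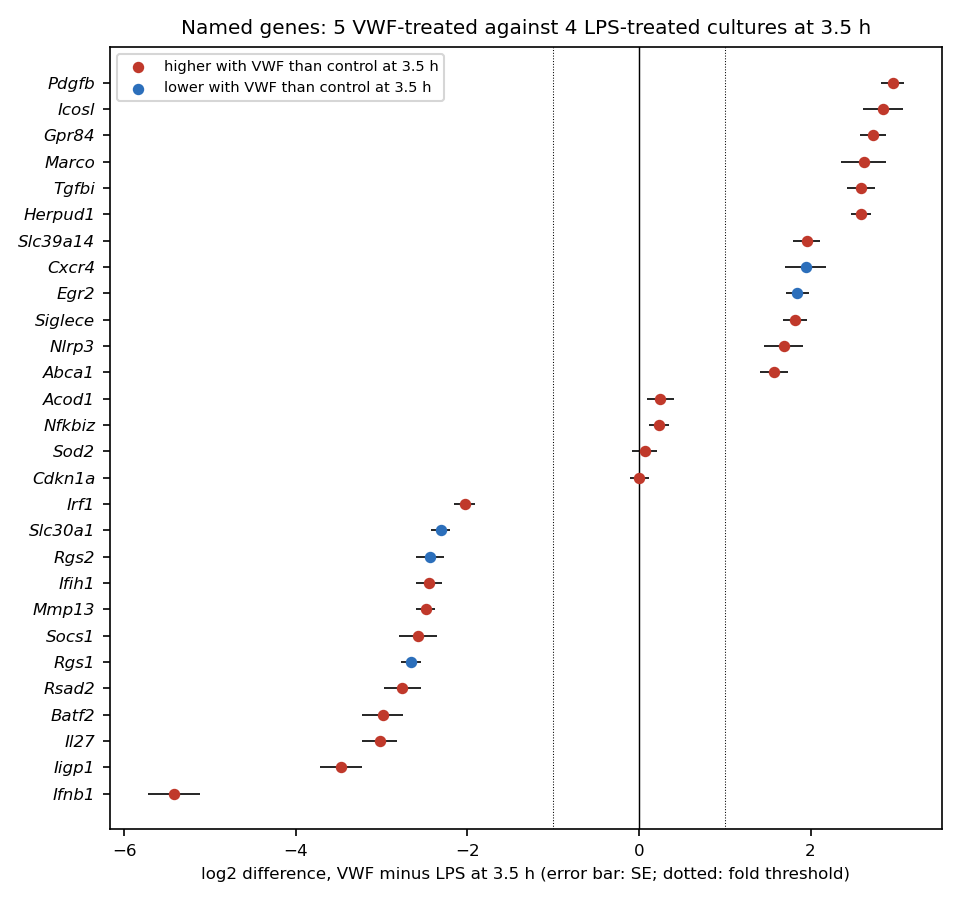
Log2 difference between 5 cultures with VWF and 4 with LPS at 3.5 h (positive: higher with VWF) for 28 called genes picked after their values were seen to show both directions, with SE as error bars and dotted lines at the fold threshold. Red points rose and blue points fell with VWF against control, and Pdgfb lies highest and Ifnb1 lowest.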

How the data were processed

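BMDMs of 28 cultures were sequenced (paired-end 150-base reads), and the 10 cultures of VWF and PBS control at 3.5 h were compared. The authors aligned the reads with STAR to GRCm38 and deposited raw counts per gene, with Ensembl identifiers. The version, the annotation and the use of strand in counting were not stated in the methods or labels. The authors tested with DESeq2.

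Deposited counts were tested as they were with edgeR 4.0.16 in R 4.3.3 (TMM factors, robust quasi-likelihood test, Benjamini-Hochberg adjustment over all genes tested), with only the groups of each comparison in the fit. Genes were kept at 10 TPM or more in at least 1 culture of the comparison, with union exon lengths of GENCODE M21, which matched 54495 of 54532 identifiers. Calls needed an adjusted p under 0.05 and an absolute log2 fold change over 1. Total counts ranged from 41131209 to 76943833. The steps were tested on simulated data for the comparison at 3.5 h (8200 genes), where 99% of genes changed by 1.5 and 100% of those changed by 3 on the log2 scale were called, beside 1 false call. At 1.5, 90% were called for the comparison at 16 h and 89% for the change between the times. Each simulation changed 200 genes in random directions, with counts drawn independently. It held no variation shared between genes and fewer changed genes than the data, so errors from these cannot be read from it. Shared sequence is the percentage of 100-base exon windows found in another gene.

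Named genes were, for each list, up to 4 called genes in each direction with the largest change, no overlap between groups and a mean of at least 1 CPM; the 10 largest fold changes in each direction with a mean of at least 5 CPM; and the 10 largest differences in CPM. Members that a count or a list sentence names beyond these, and the printed promoters, were chosen after their values were seen. The members and lists were chosen with earlier results of these data known. Some genes stand in several lists. DESeq2 1.42.0, other scalings and filters, calls without a fold threshold, a replicate block and fits that omit each culture in turn were tried as alternatives.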

Additional observations from a re-analysis of the deposited data

Results flagged for a closer look

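Among 5 cultures of a group, the highest or lowest culture stood far from the rest (Dixon's test) in 21 of 428 groups of 5 that were tested over the genes named, where chance gives about 1 in 20. Control 3.5 h replicate 4 was the culture in 10 of them. Control 3.5 h replicate 1 stood apart for Nceh1 (328 CPM). Control 3.5 h replicate 2 stood apart for Gch1 (84.7 CPM), Gpr146 (30.7 CPM), Sqstm1 (1362 CPM) and Vsir (581 CPM). Control 3.5 h replicate 4 stood apart for C3 (26.1 CPM), Dusp16 (27.3 CPM), Hivep3 (73.1 CPM), Klf7 (10.5 CPM), Mnt (43.1 CPM), N4bp1 (50.7 CPM), Ppp1r15b (102 CPM), Sema4a (15.6 CPM), Slc29a3 (86 CPM) and Zfp395 (17 CPM). VWF 3.5 h replicate 1 stood apart for Itgb3 (11.4 CPM). VWF 3.5 h replicate 4 stood apart for Cd200r1 (30.4 CPM) and Fpr1 (23.3 CPM). VWF 3.5 h replicate 5 stood apart for Arhgef3 (138 CPM), Gpnmb (6938 CPM) and N4bp1 (282 CPM).

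The effect of VWF at 3.5 h and at 16 h differed by the interaction test for many genes. The late values include Control 16 h replicate 5, which stood apart from the other 16 h controls by its TMM factor. Of the genes that rose at 3.5 h, the effect moved against its direction in 450 and lay further from 0 at 16 h in 18, and 16 were called lower at 16 h. Of the genes that fell, the numbers were 254, 10 and 5. Cd14 stood at a log2 value of 2.40 against control early and at -1.63 late (interaction -4.01). Dusp2 stood at a log2 value of 2.28 against control early and at -1.58 late (interaction -3.84). Fos stood at a log2 value of -1.23 against control early and at 1.30 late (interaction 2.56). Gem stood at a log2 value of 1.83 against control early and at -2.98 late (interaction -4.78). Nfil3 stood at a log2 value of 1.56 against control early and at -1.99 late (interaction -3.53). Rgs16 stood at a log2 value of 1.01 against control early and at -1.83 late (interaction -2.83). Scd2 stood at a log2 value of -1.90 against control early and at 1.24 late (interaction 3.16).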

How the results depend on the processing

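DESeq2, median-of-ratios factors, scaling by total count and the replicate block left the total number of called genes within 1.5 times in all 4 comparisons, but scaling by total count moved the splits to 612 higher and 643 lower at 3.5 h in place of 753 and 453, 329 and 356 at 16 h in place of 355 and 324, 612 and 570 for the change between the times in place of 474 and 697, and 751 and 340 against LPS in place of 353 and 503. The number of genes called at 3.5 h rose to 2099 (1209 higher, 890 lower) with filterByExpr, to 2366 (1393 and 973) with no filter and to 3578 (1873 and 1705) with no fold threshold. At 16 h these settings gave 1363, 1378 and 2163 genes in place of 679, for the change between the times 1972, 1904 and 2807 in place of 1171, and against LPS 1776, 1940 and 3768 in place of 856. Without the fold threshold 168 genes that fell at 3.5 h were lower at 16 h, and 688 list genes were called. In the shorter promoter window, from 100 bases before the start, the ISRE motif was held by 9.83% of genes that rose and 2.08% of all. The κB motif was held by 2.03% and 1.20%, the AP-1 motif by 5.59% and 3.19%, and the CRE-like motif by 2.54% and 4.43%.

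Leaving out 1 culture gave 1174 to 1216 genes at 3.5 h (712 to 763 higher, 412 to 480 lower), 643 to 710 at 16 h, 1141 to 1211 for the change between the times and 777 to 946 against LPS. It gave 210 to 227 genes that rose and were higher at 16 h, 425 to 459 that rose and moved back, 61 to 76 that fell and were lower at 16 h, 243 to 265 that fell and moved back, and 368 to 384 list genes.

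The replicate block gave 1216 genes at 3.5 h (758 higher, 458 lower). Cultures of VWF and control with the same number correlated at 0.0809, 0.532, 0.808, -0.562 and 0.649 in their deviations. Not every pair was over 0.1, so the numbers were not taken as pairs, and 2 of 5 VWF-treated cultures correlated best with their own number. The second component of the variation within groups (19.4%) had similar scores in cultures of the same number, and the labels do not say what a number marks. Csf1r, which was not called, reversed to -0.16 with scaling by total count, and without 1 culture ranged from -0.049 to 0.13 (-0.032 without Control 3.5 h replicate 1, -0.049 without VWF 3.5 h replicate 5). Leaving out the 3 cultures that stood apart was chosen after seeing the data. Depth limited Ifnb1, whose controls reached no more than 7 counts, so that its fold change is imprecise. The causes of these shifts were not tested.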
